A study of Mus musculus with 6 samples.

Results

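The JAK-STAT pathway carries signals from cytokine receptors to the nucleus, and its genes were described here with and without knockdown of Gch1 in BV2, a mouse microglia line that grows without limit in culture. Of 10 listed genes (the kinases Jak1, Jak2, Jak3 and Tyk2, the transcription factors Stat3, Stat5a, Stat5b and Stat6, and the inhibitors Socs1 and Socs3), 9 had a row among the 12327 genes of the deposited table, and all 9 entered the test. Socs1 had no row and was not analysed here. Every gene of the table reached a mean of at least 0.501 FPKM (fragments per kilobase, scaled to sequencing depth) in 1 group or both. The group was chosen by the values of Jak3, which was lower in all 3 knockdown libraries than in the controls. The comparison of knockdown with control therefore describes these genes and does not test them, and no p-value is given for them.

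The study measured ribosomal RNA-depleted total RNA in 6 libraries, 3 labelled GCH1-KD and 3 labelled negative control. GCH1 is GTP cyclohydrolase I, which starts the synthesis of the enzyme cofactor tetrahydrobiopterin. The knockdown cells carried an adenovirus (Ad-shGCH1) for 48 hours. The labels name the control group Ad-NC and describe infection for the other group alone, and the series text calls the controls wild type, so whether they received a virus is not clear. All cells belonged to 1 subline, and the labels do not say that libraries came from separate cultures, so the spread between libraries may be technical.

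A cytokine receptor that signals through JAKs has no kinase of its own. Its chains hold JAK kinases, which phosphorylate the receptor when a ligand joins the chains, and STAT proteins then dock, are phosphorylated, pair and move to the nucleus. JAK3 binds the common gamma chain shared by the receptors of interleukins such as IL-4, IL-7 and IL-15, and works with JAK1. JAK2 serves the receptors of GM-CSF and IL-3, and TYK2 those of type I interferon and the IL-10 and IL-12 families. In microglia and macrophages STAT3 is known for IL-6 and IL-10 signalling, STAT5 for GM-CSF, and STAT6 for IL-4. SOCS genes are switched on by STATs and their proteins block JAKs or receptors, which closes a feedback loop.

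The sequences before the RefSeq start of 2 genes are shown, Jak3 because its level chose the group and Socs3 because it is a classic target of STAT3. Both come from RefSeq (GRCm38.p6), 5′ to 3′ along the gene, and end before the first exon that GENCODE M21 places in the window. Jak3 is read from the plus strand at chr8:71676133-71676295 and Socs3 from the minus strand at chr11:117969452-117969616. The Jak3 stretch lies outside the GENCODE gene, while that of Socs3 lies inside it, in an intron of a longer noncoding transcript that starts farther upstream. Capitals mark TTCNNNGAA, the palindrome bound by most STAT dimers, which reads the same on both strands.
Jak3: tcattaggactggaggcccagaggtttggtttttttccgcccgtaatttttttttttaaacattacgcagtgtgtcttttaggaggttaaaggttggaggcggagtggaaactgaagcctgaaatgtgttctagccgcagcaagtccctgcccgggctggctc
Socs3: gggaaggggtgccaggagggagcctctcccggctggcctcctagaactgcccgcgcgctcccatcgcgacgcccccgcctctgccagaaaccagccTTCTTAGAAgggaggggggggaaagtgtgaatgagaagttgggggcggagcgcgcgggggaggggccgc

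In the 250 bases before each RefSeq start, TTCNNNGAA was present in 1 of the 12 windows of the 10 listed genes, that of Socs3, where it lies 154 to 146 bases before the start. The same palindrome was found in 7.02% of 32851 windows of all genes. The same palindrome with 1 more base between its arms, the spacing that STAT6 prefers, was in 0 of the 12 windows and in 5.85% of all windows. A match describes the letters of these windows only, and the Jak3 window holds neither.

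The kinases are taken first. Jak3 (chr8:71676296-71690575, plus strand, GRCm38) measured 6.48, 6.42 and 6.82 FPKM in controls 1 to 3 and 4.87, 4.64 and 4.90 FPKM in knockdown libraries 1 to 3. All 3 knockdown libraries lay below all 3 controls, and the libraries within each group were close together. The means were 6.57 ± 0.22 and 4.80 ± 0.14 FPKM (SD, n = 3 each), so the knockdown level was 73.1% of control. The difference of log2(FPKM + 1), knockdown minus control, was -0.38 (SE 0.05), and 88 of the 12222 genes tested had a lower one. In bulk RNA, fewer cells that express a gene and less of its RNA per cell cannot be told apart. Jak3 shares 404 of its 5352 exonic bases with Insl3 on the same strand, and Insl3 had no row.

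Jak2 (chr19:29251828-29313080, plus strand), the kinase of the GM-CSF and IL-3 receptors, was at 6.42, 6.59 and 6.21 FPKM in the controls and 6.09, 5.56 and 5.99 FPKM after knockdown. The groups did not overlap, but the highest knockdown library and the lowest control were close. Its knockdown mean was 91.8% of control and its log2 difference -0.11 (SE 0.05).

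Jak1 (chr4:101152367-101265282, minus strand), the kinase shared by most of these receptors, was at 29.4, 28.7 and 29.6 FPKM in the controls and 28.6, 27.7 and 28.5 FPKM after knockdown. The groups lay next to each other without overlap, at 96.5% of control and a log2 difference of -0.05 (SE 0.04). Tyk2 (chr9:21104068-21131243, minus strand) measured 7.62, 7.08 and 6.91 FPKM in the controls and 7.02, 6.70 and 7.02 FPKM after knockdown, and the groups overlapped. Its knockdown mean was 96.0% of control, with a log2 difference of -0.05 (SE 0.05).

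Within a library, Jak3 made up 13.0%, 13.2% and 13.8% of the summed FPKM of the 4 kinases in the controls and 10.5%, 10.4% and 10.6% after knockdown. The ratio of Jak1 to Jak3 FPKM was 4.45 ± 0.10 in the controls and 5.88 ± 0.08 after knockdown (SD, n = 3 each). These shares rest on the values that chose Jak3. The other 3 kinases share 0 stretches of 50 bases with Jak3 in their annotated transcripts, so reads of that length or more would not be split between Jak3 and the other kinases.

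**Figure D1:**
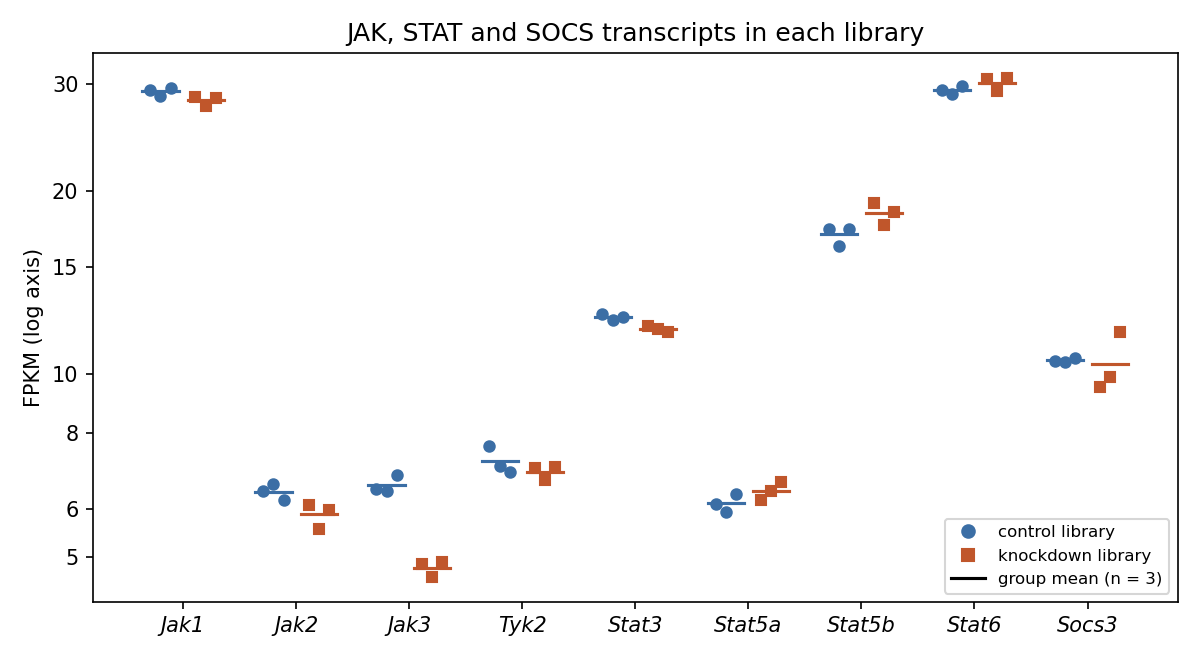
FPKM on a log axis of the 9 measured genes in each library, with controls as circles, knockdown libraries as squares and group means (n = 3) as lines. Jak3 is the gene whose groups lie farthest apart, at means of 6.57 and 4.80 FPKM, while the knockdown libraries of Socs3 spread from 9.52 to 11.7 FPKM.

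Among the STATs, Stat3 was slightly lower and Stat5b slightly higher after knockdown, and neither Stat5a nor Stat6 separated the groups. Stat3 (chr11:100885098-100939540, minus strand) measured 12.6, 12.3 and 12.4 FPKM in the controls and 12.01, 11.87 and 11.72 FPKM after knockdown. The groups did not overlap, at 95.5% of control and a log2 difference of -0.06 (SE 0.04). Stat6 (chr10:127642986-127660957, plus strand), the mediator of IL-4, was at 29.3, 28.9 and 29.8 FPKM in the controls and 30.6, 29.3 and 30.7 FPKM after knockdown. Its groups overlapped through knockdown library 2, and the knockdown mean was 103% of control, a log2 difference of 0.04 (SE 0.04).

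Stat5b (chr11:100780731-100850724, minus strand) measured 17.4, 16.3 and 17.4 FPKM in the controls and 19.2, 17.6 and 18.5 FPKM after knockdown. All knockdown libraries lay above the controls, the lowest of them by a small margin, at 108% of control and a log2 difference of 0.11 (SE 0.05). Its neighbour Stat5a (chr11:100859351-100885169, plus strand) was at 6.11, 5.93 and 6.36 FPKM in the controls and 6.21, 6.43 and 6.65 FPKM after knockdown. These groups overlapped, at 105% of control and a log2 difference of 0.06 (SE 0.05).

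Stat5a and Stat5b encode close relatives that bind the same DNA site. The transcript sets share 608 distinct stretches of 50 bases, 8.21% of those of Stat5a and 11.0% of those of Stat5b, so reads there could be credited to either gene. Stat5b exceeded Stat5a by 2.77 ± 0.06 times in FPKM in the controls and 2.87 ± 0.19 times after knockdown (SD, n = 3 each), which is less than the spread between knockdown libraries. The 3 genes Stat5b, Stat5a and Stat3 lie side by side on chromosome 11. Stat5a and Stat3 overlap at their ends by 72 exonic bases on opposite strands, and Stat6 shares 40 with Nab2, also on the opposite strand. Tyk2 shares 554 of its 6865 exonic bases with the antisense gene 1700084C06Rik, and Jak1 shares 4 with Raver2 on the opposite strand, and neither of these partners had a row. The strand setting of the counting is not given in the sources used here, so reads of these shared bases cannot be assigned.

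Socs3 (chr11:117966079-117970047, minus strand), the feedback inhibitor of gp130 and JAK signalling, was at 10.5, 10.5 and 10.6 FPKM in the controls. After knockdown it was at 9.52, 9.90 and 11.7 FPKM, so 2 libraries lay below and 1 above all controls. The coefficient of variation (SD as a share of the mean) was 0.809% in the controls and 11.4% after knockdown. The means were 10.5 ± 0.09 and 10.4 ± 1.19 FPKM (SD, n = 3 each). Its log2 difference of -0.02 (SE 0.07) changed sign without knockdown library 1 (0.03) or knockdown library 2 (0.0044).

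**Figure D2:**
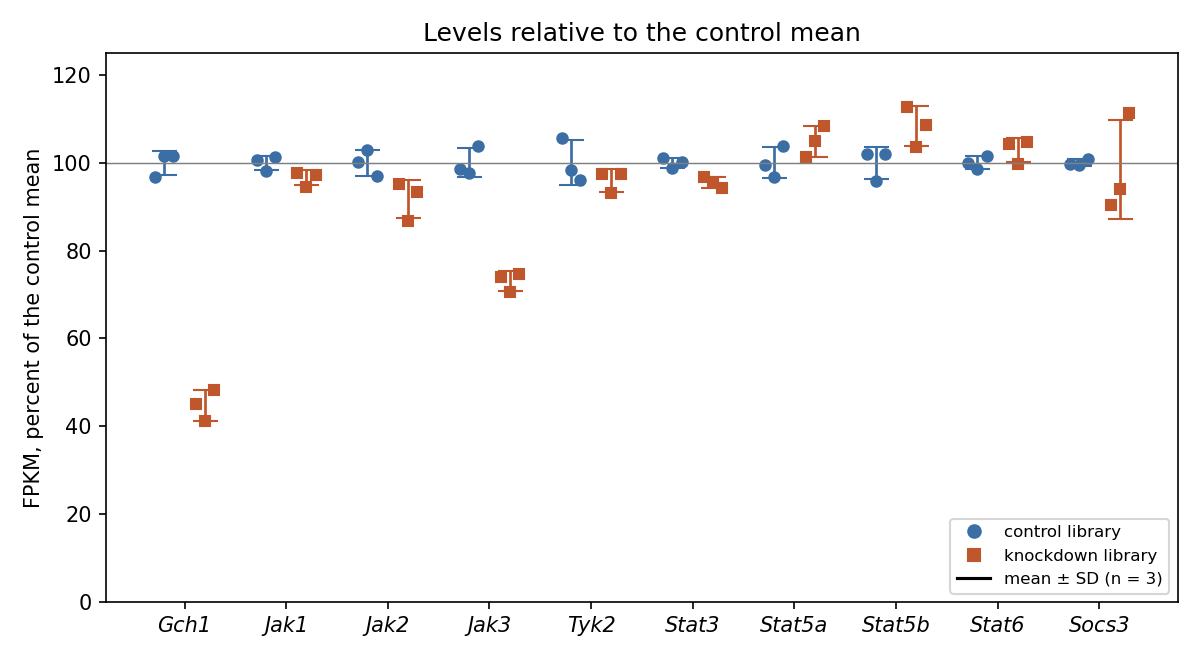
FPKM of the targeted gene Gch1 and of the 9 measured genes as a percentage of the control mean, with each library as a point and the mean ± SD (n = 3) as a bar. Gch1 lies at 44.8% of control and Jak3 at 73.1%, and the other 8 genes have knockdown means between 91.8% and 108%.

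By limma on log2(FPKM + 1), 0 of the 9 genes passed a Benjamini-Hochberg (BH) adjusted p of 0.05 over all genes, where 0.0818% of the 12222 genes tested passed. In 0 of the 17 other settings tried did any of the 9 pass. Knockdown libraries lay wholly below the controls in 4 of the 9 (Jak1, Jak2, Jak3 and Stat3), against 8.36% of all genes, and wholly above in 1, Stat5b, against 9.99%. The median log2 difference of the 9 was -0.05, and that of all genes 0.01. Since Jak3 chose the group on this same contrast, nothing is read from these counts.

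**Figure D3:**
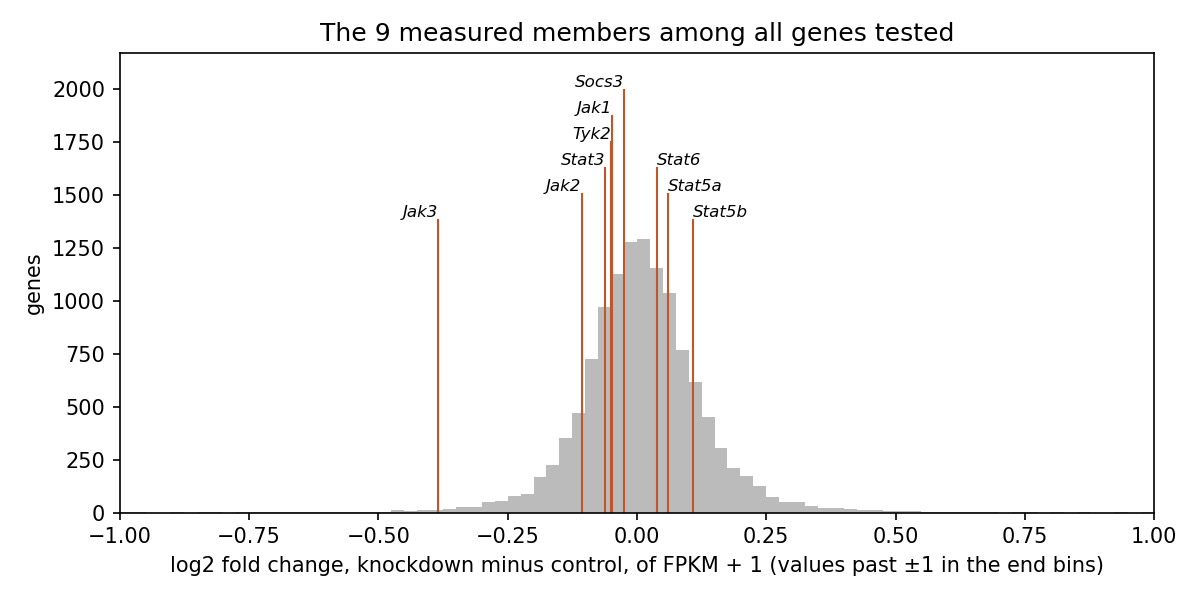
Histogram of the log2 difference, knockdown minus control, of FPKM + 1 over the 12222 genes tested, with a line for each of the 9 measured genes. Jak3 lies in the lower tail at -0.38, and the other 8 lie between -0.11 and 0.11, within the bulk of the genes.

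The levels themselves were not used to choose the genes, and FPKM, which is per length, lets them be ranked. Over the 6 libraries Stat6 (29.8 ± 0.74 FPKM) and Jak1 (28.7 ± 0.70 FPKM) were the most abundant, each above 88.5% of all genes of the table in every library. Stat6 lay above Jak1 in 5 of 6 libraries and below it in control library 1, and their ranges over the 6 libraries overlapped. Stat5b followed at 17.7 ± 0.998 FPKM, without overlap with either neighbour in the order. Stat3 (12.1 ± 0.33 FPKM) lay above Socs3 (10.5 ± 0.76 FPKM) in 5 of 6 libraries. Tyk2 was next at 7.06 ± 0.30 FPKM, below Socs3 and above Stat5a in every library, and its range met neither. Its range did meet that of Jak3, since its lowest value was 6.70 FPKM and the highest of Jak3 6.82 FPKM. The last 3, Stat5a (6.28 ± 0.26 FPKM), Jak2 (6.14 ± 0.36 FPKM) and Jak3 (5.69 ± 0.98 FPKM; SD, n = 6 each), had overlapping ranges. By group means Jak3 was in place 7 in the controls and place 9 after knockdown. Stat5a moved the other way, from place 9 to place 7. The drop of Jak3 is the contrast that chose the group, so nothing is read from these changes of place.

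The knockdown itself was visible in every library and the cells carried most microglial markers. Gch1 (chr14:47153895-47189413, minus strand) had means of 7.12 ± 0.20 FPKM without and 3.19 ± 0.25 FPKM with knockdown (SD, n = 3 each), and its decrease passed the test (limma, BH adjusted p = 0.00542). Of 14 microglial markers 10 had a row, with summed levels of 1021 to 1040 FPKM in the controls and 974 to 1032 FPKM after knockdown. P2ry12, Fcrls, Sall1 and C1qa had none. Of 12 lymphocyte markers, cells in which Jak3 is abundant, only Lck had a row, at 0.895 to 1.003 FPKM in the controls and 0.561 to 0.875 FPKM after knockdown. Of the other marker lists 5 of 36 genes had a row, namely Aldoc, Cnp, Vwf, Flt1 and Acta2. Estimated depth was 5.25 to 5.58 Gb of aligned sequence in the controls and 6.32 to 7.61 Gb after knockdown, and its part in the differences above was not tested. Fold changes also moved with GC content. The fifth of coding genes with the highest GC (56.0% and more), which holds Jak3 at 60.8%, had a median log2 difference of -0.03. With the trends of GC and length removed, that of Jak3 was -0.34 (SE 0.04).

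Whether the rest of the pathway differed was asked in 146 other genes in 11 lists by role, of which 86 had a row and were tested. By limma 0 were higher and 0 lower at a BH adjusted p of 0.05. At an unadjusted p under 0.05 there were 14 of the 86 (16.3%), 4 higher and 10 lower, against 11.3% of all genes. Their median log2 difference was -0.02, against 0.01 for all genes, and 48 of the 86 (55.8%) were below control, against 47.0% of all genes. Knockdown libraries lay wholly below the controls in 13 of the 86 and wholly above in 10, against 8.36% and 9.99% of all genes. Most genes named below have the smallest p of their list in this same contrast, which favours separated groups. Differences below are log2(FPKM + 1), knockdown minus control.

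Among the receptors that signal through JAK3, Il2rg, the common gamma chain that holds JAK3, was at 40.6, 40.0 and 39.1 FPKM in the controls and 36.0, 36.5 and 38.4 FPKM after knockdown. The groups did not overlap, and the difference of -0.11 (SE 0.04) did not pass (limma BH adjusted p = 0.384). Il7r, the IL-7 receptor chain, was at 16.6 ± 1.04 and 18.4 ± 1.83 FPKM, and Il4ra, the IL-4 receptor chain, at 2.83 ± 0.11 and 2.71 ± 0.10 FPKM (SD, n = 3 each). Il13ra1, listed with them because it pairs with IL-4Rα, forms a receptor that lacks the gamma chain and does not use JAK3. Its difference was 0.04 (SE 0.07), and below 0 without control library 3 (-0.0030) or with GC and length removed (-0.01). Il2ra, Il2rb, Il9r and Il21r had no row. In this list 5 of 9 genes were tested, 2 above and 3 below control.

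Of the other class I receptor chains 10 of 21 were tested, 3 above and 7 below control (70.0%, against 47.0% of all genes). Their median was -0.03. Csf2rb2, the IL-3-specific relative of the common beta chain, was at 18.0 ± 0.43 and 16.7 ± 0.38 FPKM (-0.10, SE 0.04). It shares 892 stretches of 50 bases with Csf2rb, 18.4% of its own and 12.3% of those of Csf2rb, so reads could be split between them. Crlf2, the TSLP receptor chain, was at -0.10 (SE 0.05), Il6ra, the IL-6 receptor, at 0.10 (SE 0.05) and Il3ra at -0.07 (SE 0.07). Knockdown libraries lay wholly below the controls for Csf2rb2 and Crlf2 and wholly above for Il6ra, while the groups of Il3ra overlapped. The BH adjusted p-values by limma ran from 0.391 to 0.727 in these 4.

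Of the class II chains, which serve interferons and IL-10, 8 of 10 were tested, 6 above and 2 below control, with a median of 0.05. Ifngr1, the ligand-binding chain for interferon gamma, was at 12.9 ± 0.53 and 14.0 ± 0.27 FPKM, and Ifnar2, of the type I interferon receptor, at 17.2 ± 0.86 and 15.95 ± 0.21 FPKM (SD, n = 3 each). Neither pair of groups overlapped. Il10rb was at 0.13 (SE 0.06) and Ifngr2 at 0.05 (SE 0.03), and the BH adjusted p-values by limma ran from 0.46 to 0.592 in these 4. The groups of Ifngr2 did not overlap either, with knockdown above, and those of Il10rb did.

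Few ligands were measured, 4 of 29, and all 4 were below control, against 47.0% of all genes. Ebi3, a subunit of IL-27 and IL-35, was at 15.8, 15.4 and 14.8 FPKM in the controls and 13.4, 13.4 and 13.0 FPKM after knockdown, without overlap. Its difference was -0.20 (SE 0.04, limma BH adjusted p = 0.261). Osm, oncostatin M, was at 11.9 ± 0.22 and 10.8 ± 1.17 FPKM, Il15 at 3.26 ± 0.64 and 3.09 ± 0.51 FPKM, and Lif at 0.587 ± 0.069 and 0.508 ± 0.034 FPKM (SD, n = 3 each). The difference of Il15 (-0.06, SE 0.13) was above 0 without control library 2 (0.05) or knockdown library 3 (0.02). Genes of IL-4, IL-6, IL-7, IL-10, GM-CSF and the interferons beta and gamma had no row.

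Stat2, which carries type I interferon signals, and Irf9, its partner in the interferon complex, showed no separation of groups. Stat2 was at 3.89 ± 0.09 and 3.74 ± 0.22 FPKM and Irf9 at 4.07 ± 0.89 and 4.21 ± 0.19 FPKM (SD, n = 3 each), with BH adjusted p-values by limma of 0.788 and 0.886. The difference of Irf9 (0.05, SE 0.12) was below 0 without control library 1 (-0.05). Stat4 had no row.

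Inhibitors other than Socs3 gave differences of both signs. Among the other SOCS genes, 3 of 6 were above and 3 below control, with a median of -0.01. Socs4 was at 0.12 (SE 0.06), Socs5 at 0.11 (SE 0.06), Socs7 at -0.04 (SE 0.05) and Socs6 at -0.23 (SE 0.25). Socs6 was at 4.71, 4.93 and 4.52 FPKM in the controls and 5.26, 2.07 and 4.97 FPKM after knockdown, so knockdown library 2 alone was low, and without it the difference was 0.10. The BH adjusted p-values by limma ran from 0.528 to 0.81 in these 4. Of 12 inhibitors outside the SOCS family, among them phosphatases and PIAS proteins, 6 were above and 6 below control. Sh2b3, the adaptor LNK that restrains JAK2, was at 11.7 ± 1.43 and 9.95 ± 0.58 FPKM (SD, n = 3 each; -0.21, SE 0.08, limma BH adjusted p = 0.414), without overlap. Ptpn11 (SHP2) was at 0.10 (SE 0.05), the ubiquitin ligase Cbl at 0.08 (SE 0.05) and Pias1 at 0.09 (SE 0.05), with BH adjusted p-values (limma) of 0.496 to 0.553. The knockdown libraries of Ptpn11 and Cbl lay wholly above the controls, and the groups of Pias1 overlapped.

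**Figure D4:**
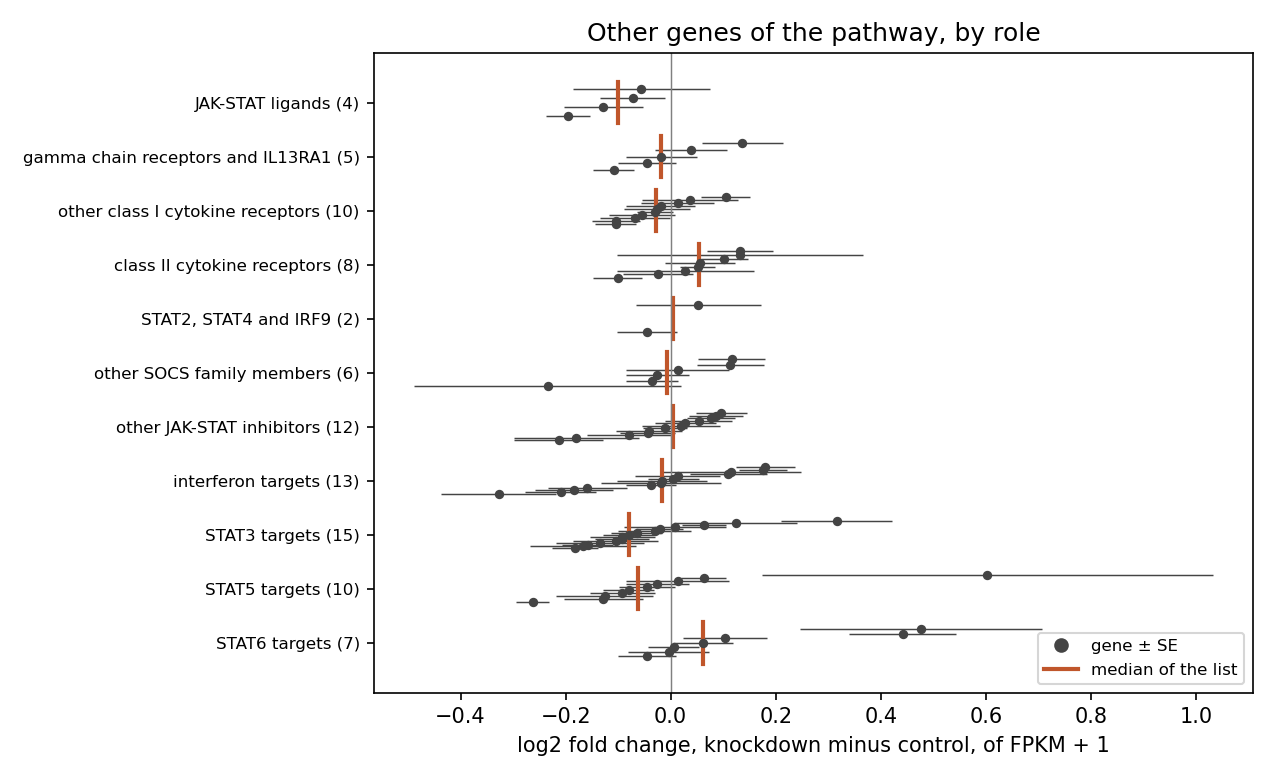
Log2 difference (knockdown minus control) of FPKM + 1 for each tested gene of the 11 lists, as points ± SE, with the number tested beside each list name and the median as a bar. The medians lie between -0.10 (ligands) and 0.06 (STAT6 targets), and 0 genes passed the test.

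Known targets of the STATs were counted by factor, and some genes are in more than 1 list or answer to other factors too. Of STAT3 targets, with a median of -0.08, 11 of 15 (73.3%) were below control, against 47.0% of all genes. Cebpb, a myeloid transcription factor, was at 107 ± 2.05 and 94.2 ± 4.68 FPKM (-0.18, SE 0.04), Bcl6, a repressor, at 16.4 ± 0.42 and 14.6 ± 0.75 FPKM (-0.16, SE 0.05), and Cebpd at 4.47 ± 0.69 and 5.79 ± 0.57 FPKM (0.32, SE 0.11; SD, n = 3 each). The groups of these 3 did not overlap, those of Junb (-0.09, SE 0.05) did, and the BH adjusted p-values by limma ran from 0.291 to 0.528 in these 4.

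Of STAT5 targets, with a median of -0.06, 7 of 10 (70.0%) were below control, against 47.0% of all genes. Ccnd1, cyclin D1, was at 46.1, 45.3 and 45.9 FPKM in the controls and 38.1, 37.7 and 38.2 FPKM after knockdown, well apart. Its difference of -0.26 (SE 0.03) gave a limma BH adjusted p of 0.0718 and did not pass. Pim1, a kinase gene induced by STAT3 and STAT5, was at 28.2 ± 0.82 and 26.6 ± 1.37 FPKM, and Bcl2l1, a survival gene, at 18.9 ± 1.56 and 17.7 ± 0.54 FPKM (SD, n = 3 each), with BH adjusted p-values (limma) of 0.553 and 0.594. The groups of Bcl2l1 did not overlap, with knockdown below, and those of Pim1 did. Cish, a direct STAT5 target, was at a difference of 0.01.

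Of STAT6 targets 7 of 17 were tested, 5 above and 2 below control (28.6%, against 47.0% of all genes), with a median of 0.06. Mrc1, the mannose receptor, was at 2.99, 3.38 and 3.54 FPKM in the controls and 5.77, 4.32 and 4.53 FPKM after knockdown, without overlap (0.44, SE 0.10, limma BH adjusted p = 0.269). Egr2 was at 2.33, 4.79 and 1.96 FPKM in the controls and 4.18, 4.57 and 4.34 FPKM after knockdown, so control library 2 lay above all knockdown libraries. Its difference of 0.48 (SE 0.23) had a limma BH adjusted p of 0.489. Without control library 2 it was 0.77 with a limma BH adjusted p of 0.0424. In that fit 18 genes passed, against 10 with all libraries, and with any other library left out Egr2 did not pass. Klf4 (0.10, SE 0.08) and Irf4 (0.06, SE 0.06) had BH adjusted p-values (limma) of 0.645 and 0.709. The groups of Irf4 did not overlap, with knockdown above, and those of Klf4 did. Arg1, Retnla and Chil3, which IL-4 induces in macrophages, had no row.

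Of interferon targets 13 of 19 were tested, 6 above and 7 below control, with a median of -0.02. At an unadjusted p under 0.05 by limma there were 5 of the 13 (38.5%), 2 higher and 3 lower, against 11.3% of all genes. That share was the highest of the 11 lists, and the class II receptors and the other SOCS genes had no gene under this p. The lists were chosen with earlier results of these data known, so no enrichment is read from the share. Oas1a (0.18, SE 0.05) and Rsad2 (0.18, SE 0.06), both antiviral, were above control, while Irf7 (-0.21, SE 0.07) and the immunoproteasome gene Psmb9 (-0.33, SE 0.11) were below. The groups of each of these 4, named for the smallest p of the list, did not overlap. Their limma BH adjusted p was 0.292 to 0.366.

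The genes whose profile was most like that of Jak3 were found by Pearson's r over the 6 libraries on log2(FPKM + 1), among 11223 genes with a mean of at least 1 FPKM. Polr2c, a subunit of RNA polymerase II, came first (r = 0.996), followed by the targeted Gch1 (r = 0.993) and Tmem81 (r = 0.993). Polr2c was at 9.04, 9.02 and 9.25 FPKM in the controls and 7.995, 7.85 and 7.88 FPKM after knockdown. Tmem81 was at 3.52, 3.32 and 3.62 FPKM in the controls and 2.45, 2.37 and 2.61 FPKM after knockdown. The groups were apart in both, with BH adjusted p-values (limma) of 0.262 and 0.164. Any gene with well separated groups scores high on this measure, and with 6 libraries in 2 groups it describes likeness only.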

How the data were processed

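Expression was measured by RNA sequencing in 3 knockdown and 3 control libraries, grouped by the genotype label. The deposited values behave as FPKM computed by the authors: they are not whole, they sum to 224291 to 230292 per library, and in genes with 1 transcript 77.1% to 78.7% of values times transcript length lay within 0.1 of a whole step. That step gave the estimated depth, since counts were not used here. HISAT2, StringTie and edgeR are named in the submitters' processing notes, without versions, with the human build hg38, although the identifiers are mouse genes. The sources used here give neither the strand setting nor the annotation. Symbols and positions came from GENCODE M21 (GRCm38) for 12300 identifiers.

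A gene needed 0.5 FPKM in 3 or more libraries, which left 12222. They were fitted by limma 3.58.1 (R 4.3.3) on log2(FPKM + 1), with a mean-variance trend and BH adjustment over all of them. The pseudocount shrinks differences of low genes. Named are the members, Gch1, up to 4 genes per list with the smallest p, genes past the threshold and the 3 genes most like Jak3. Other genes were named after their values were seen. Members and lists were chosen with earlier results of these data known. The pathway lists leave out 1 gene, for a reason other than its values, which are not reported here. Python 3.11.15, numpy 2.4.6, pandas 2.3.3 and matplotlib 3.10.9 were used.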

Additional observations from a re-analysis of the deposited data

How the results depend on the processing

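The 17 alternatives were the replicate block, 2 other filters, pseudocounts of 0.1 and 0.5, median-of-ratios and quantile scaling, robust moderation, no trend, removal of the GC and length trends with and without the block, and each library left out. Of 153 values of the 9 genes, 3 moved by more than 1 SD, all of them Jak3, which was at -0.44 with a pseudocount of 0.1, and at -0.34 with GC and length removed, with the replicate block or without it. Jak3 lay between -0.398 and -0.36 with 1 library left out. The sign changed in 2 of the 153, both Socs3. Of the 12222 genes 10 passed as reported, 6 (without knockdown library 2 or 3) to 18 (without control library 2) with 1 library left out, and 0 with the replicate block (1330 at an unadjusted p under 0.05 by limma), also with GC and length removed (0, and 1432). With the block Gch1 had the same log2 difference as without it, -0.96 (SE 0.06), and a BH adjusted p (limma) of 0.0604, and with GC and length removed as well -0.97 (SE 0.05) and 0.0736. Of the 86 pathway genes 0 to 1 passed with 1 library left out, Egr2 without control library 2. Of 732 comparisons of other named genes, 2 lost the threshold, 1 gained it, 7 uncalled ones changed sign and 0 called ones did. In the order of the levels 7 of 9 genes kept their place in the controls alone. Deviations from the group means of libraries with the same number correlated at 0.095, 0.059 and 0.094 across genes, and each library had its highest correlation with its own number, which is only a hint, since the labels do not say what a number shares. Depth limits the lowest genes most, such as Lif and Lck, and the number of reads behind them is unknown.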
